A study of Mus musculus with 12 samples.

Results

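At 20 weeks, fibrotic mouse skin that had received CD36highCD90+ fibroblasts was compared with fibrotic skin that had not. The comparison used 6 of the 12 libraries of the series, 3 from treated skin and 3 from untreated fibrotic skin. All of them came from C3H/HeJ mice, and each library holds the polyadenylated RNA of a piece of skin. Treated samples carry the cell label "CD36highCD90+ Treated" and the time of 20 weeks; their labels do not repeat that the tissue was fibrotic, which the description of the series gives. Untreated samples are labelled as fibrotic tissue at 20 weeks. Normal skin (3 libraries, no time given) and fibrotic skin at 6 weeks (3 libraries) are used for levels, and normal skin also for the comparisons at the end. The sources used here do not say how the fibrosis was brought about, from which animals the cells came, how many were given, by which route or when, nor the age or sex of the mice. They do not say whether untreated skin received a vehicle, or whether each library stands for another mouse; p-values here therefore cover the spread between these samples, which may be technical.

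CD36 takes up long-chain fatty acids and CD90, the product of Thy1, marks the surface of fibroblasts, which build and break down the collagen matrix of the dermis. Above the dermis, keratinocytes mature from basal cells into a cornified layer, and after injury or inflammation they switch to a wound programme with other keratins, small proline-rich proteins, stefins and interleukin 36. Hair follicles, their stem cells and the sebaceous glands are further parts of skin, and all of these tissues are mixed in one piece. In such mixed tissue, fewer cells of a type and less RNA per cell cannot be told apart.

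Genes were kept when they reached 1 FPKM in at least 3 of the 6 libraries, which left 13130 of the 23359 genes of the table. FPKM is the number of fragments mapped to a gene, scaled by its length and for the size of the library. The cutoff fell between Zcwpw1, which just passed at 1.0005, and Ppil6 at 0.9995 FPKM. Of the genes kept, 356 reached 1 FPKM in exactly 3 libraries. Another 452 reached it in 2 libraries and were left out. The group decided the entry of 27 genes that were at 1 FPKM in the 3 untreated libraries alone and of 58 that were so in the 3 treated ones alone; for such genes, standing apart follows from the filter. Per library, 12658 to 13364 genes had 1 FPKM or more, and the median over the genes kept was 10.5 to 10.6 FPKM; read depth cannot be seen in such a table. Skin was recognisable in each library: the basal keratin genes Krt5 and Krt14 and the fibroblast genes Col1a1, Dcn, Lum and Pdgfra were present in all 6, and the lowest value was 1.49 FPKM, of Pdgfra. Krt1 and Hrnr were listed at 0 in all 3 untreated libraries, and Krt10 in 2 of them, although each reached 10 FPKM or more in every other library. They are left out of the list counts below, with no fold, since a listed 0 of this kind can be a failed estimate.

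The 3 treated libraries did not move together. Treated replicate 1 lay nearest to untreated skin, and treated replicate 3 farthest. On the log2(FPKM + 1) scale used throughout, 339 genes of treated replicate 1 were at least 2-fold above the untreated mean and 309 at least 2-fold below it. For treated replicate 2 the numbers were 510 and 718, and for treated replicate 3 1080 and 1029. Each untreated library, set against the mean of the other two, had 77 to 131 genes above and 28 to 164 below. The median SD of a gene was 0.235 in treated and 0.147 in untreated skin (log2 scale, n = 3 each), and the treated SD was the larger one for 73.2% of genes. Between treated replicates 2 and 3 alone the median SD was 0.139 (n = 2). An SD of 2 values tends to come out smaller than one of 3, so this value cannot be set against the others. Treated replicates 2 and 3 correlated at 0.941, and the untreated libraries with each other at 0.961 to 0.980. Treated replicate 1 was nearer to the normal mean than to the untreated mean for 28.5% of genes, treated replicate 2 for 56.8% and treated replicate 3 for 57.4%. Skeletal muscle fibre genes made up 0.02801% of the FPKM of treated replicate 1, against 0.523% and 0.907% in the other treated libraries and 0.187 to 0.862% in the untreated ones; the part of muscle in the spread was not tested.

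**Figure D1:**
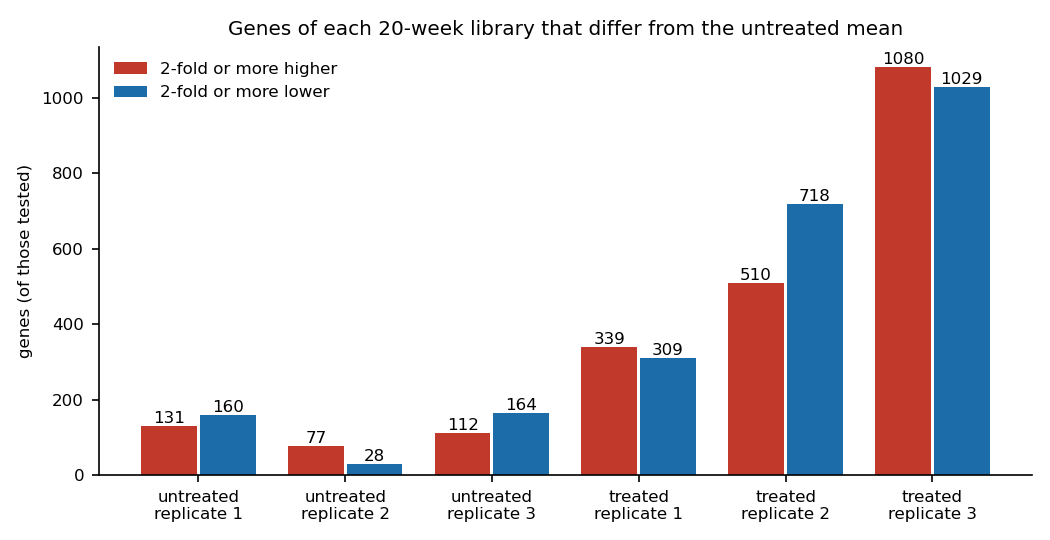
Number of tested genes in each 20-week library that lay 2-fold or more above (red) or below (blue) the untreated mean on the log2(FPKM + 1) scale; untreated libraries are set against the mean of the other two. Treated replicate 3 has 1080 genes above and 1029 below, treated replicate 1 has 339 and 309.

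The limma fit of the 6 libraries called 3 of 13130 genes at an adjusted p under 0.05 (0.0228%), 1 higher (0.00762%) and 2 lower (0.0152%) in treated skin, and 3364 genes (25.6%) had an unadjusted p under 0.05. Of the 3, Krt1, a keratin of the upper epidermis, was listed at 0 in all untreated libraries and at 7509, 4547 and 956 FPKM in treated replicates 1, 2 and 3. Snora44, a small nucleolar RNA shorter than library fragments usually are, was listed at 0 in all treated libraries and at 124, 96.9 and 110.3 FPKM in the untreated ones. No fold is given for either. The other call was Cyp2s1, which encodes a cytochrome P450 of surface epithelia that acts on retinoic acid, and it fell. Its levels were 38.7, 40.2 and 38.002 FPKM in untreated replicates 1, 2 and 3 and 12.7, 10.5 and 13.1 FPKM in treated replicates 1, 2 and 3. The treated libraries stood close together, near the 9.95, 10.4 and 8.49 FPKM of normal skin. The log2 fold change was -1.62 ± 0.12 (SE, n = 3 per group, adjusted p = 0.0294). The call was lost when any library other than treated replicate 1 was left out, with adjusted p from 0.0616 to 0.294, and also with the libraries rescaled without muscle, hair and cornified genes (adjusted p = 0.11).

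How many genes passed depended on treated replicate 1 and on the libraries fitted. Without treated replicate 1, 3863 genes (29.4%) passed; without untreated replicate 2 or 3, 1 gene was called, and without any of the other 3 libraries 2 to 4 were. A fit of all 12 libraries, which assumes that every group spreads alike, called 2141 genes (16.3%), 608 higher (4.63%) and 1533 lower (11.7%). The members of each group are therefore described by their values in each library and by how often the groups stood apart, meaning that all 3 treated values lay above or below all 3 untreated values. Over all genes tested, 4290 (32.7%) stood apart, 1663 of them higher (12.7%) and 2627 lower (20.0%). None of the genes described below passed the 6-library fit unless that is said. "Passed without treated replicate 1" refers to the fit of the other 5 libraries, in which the treated group has 2 samples, and counts genes of either direction.

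Genes of the cornified layer were lower in treated skin. Of 27 tested genes of the cornified envelope and late differentiation, 26 stood apart lower and 0 higher, with a median log2 difference of -1.64 against -0.02 over all genes. The median difference was -0.72 in treated replicate 1, -1.67 in treated replicate 2 and -2.57 in treated replicate 3. The 12-library fit called 23 of them lower, and 26 passed without treated replicate 1. This list was thus lower in every treated library, replicate 1 included.

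Rptn, which encodes repetin, a cornified envelope protein, had the lowest fold change of the genes that stood apart and averaged at least 5 FPKM in either group, short RNAs aside. It stood at 1168, 1293 and 1156 FPKM in the untreated libraries and at 323, 98.9 and 4.35 FPKM in treated replicates 1, 2 and 3. Every treated value was below every untreated one, and the treated values themselves differed from highest to lowest by 74.2-fold. The log2 fold change was -4.44 ± 1.42 (SE, n = 3 per group, adjusted p = 0.140). Sprr2d, a small proline-rich envelope precursor, stood at 411, 262 and 265 FPKM untreated and 139.7, 32.8 and 0.878 FPKM treated. Both genes lie in the epidermal differentiation complex on chromosome 3, Rptn at chr3:93393699-93399442 and Sprr2d at chr3:92339140-92340873 (GRCm38.p6, the assembly behind mm10). Spink7, a serine protease inhibitor gene, and Akr1d1, a steroid reductase gene, were also among the 10 lowest fold changes. Spink7 had 253, 273 and 206 FPKM untreated and 47.95, 35.5 and 0.732 FPKM treated. Akr1d1 had 27.04, 27.8 and 41.6 FPKM untreated and 5.12, 2.32 and 0.1003 FPKM treated. In all 4 genes treated replicate 1 was the highest treated library and replicate 3 the lowest.

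The 4 promoters printed here belong to the gene that passed (Cyp2s1), the matrix protein gene Coch, which had the smallest p of the higher genes not listed at 0, and 2 envelope genes that were low together (Rptn and Sprr2d). Each is the 250 bases before the transcript start of the RefSeq promoter table, 5′ to 3′ on the gene's strand (GRCm38.p6). The Coch window reaches 58 bases into the listed span of the gene, which begins farther upstream. Capitals mark TATAAA, the pattern TGANTCA, which includes the AP-1 site among other letters at N, and GCGTG, the core bound by the dioxin receptor, searched on both strands without any overlap between them in these windows.
Rptn, chr3:93393449-93393698, plus strand: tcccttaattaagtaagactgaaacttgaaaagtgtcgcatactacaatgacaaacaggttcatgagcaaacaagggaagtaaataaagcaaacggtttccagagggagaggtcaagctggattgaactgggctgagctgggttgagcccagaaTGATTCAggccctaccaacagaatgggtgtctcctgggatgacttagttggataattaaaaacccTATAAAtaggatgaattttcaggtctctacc
Sprr2d, chr3:92338890-92339139, plus strand: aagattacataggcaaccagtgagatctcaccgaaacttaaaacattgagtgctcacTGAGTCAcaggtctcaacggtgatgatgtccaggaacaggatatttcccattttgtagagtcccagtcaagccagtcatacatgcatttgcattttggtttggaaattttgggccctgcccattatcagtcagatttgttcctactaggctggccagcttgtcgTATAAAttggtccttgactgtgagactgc
Cyp2s1, chr7:25816526-25816775, minus strand: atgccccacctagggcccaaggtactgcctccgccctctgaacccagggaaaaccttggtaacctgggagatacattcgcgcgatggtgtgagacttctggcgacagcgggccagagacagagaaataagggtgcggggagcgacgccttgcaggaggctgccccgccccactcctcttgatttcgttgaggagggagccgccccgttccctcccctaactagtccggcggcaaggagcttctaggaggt
Coch, chr12:51593091-51593340, plus strand: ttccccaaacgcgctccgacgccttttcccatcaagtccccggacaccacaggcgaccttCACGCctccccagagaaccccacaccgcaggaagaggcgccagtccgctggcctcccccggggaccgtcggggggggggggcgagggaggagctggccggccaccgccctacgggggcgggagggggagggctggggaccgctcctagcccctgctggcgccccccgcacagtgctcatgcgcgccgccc
Rptn and Sprr2d each held TATAAA, starting 31 and 29 bases before the start, and TGANTCA, starting 96 and 193 bases before it. Other lower genes that were searched did not share this pair. The Lce3 genes, Stfa1, Stfa2, Akr1d1 and Klk14 held no TGANTCA. Among these only Lce3e held TATAAA, starting 243 bases before the start. Over all 32851 promoter windows of this length in the table, 12.4% held TATAAA, 6.75% TGANTCA and 28.2% GCGTG. Coch held GCGTG once and Cyp2s1 none of these letters in this window. A match is a run of letters and not a measured binding site.

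The 6 Lce3 genes, late envelope genes of stressed epidermis that lie side by side on chromosome 3 from 92925287 to 92993426, all stood apart lower, with a median log2 difference of -3.69; this family was chosen after its values were seen. Lce3c had 283, 275 and 159 FPKM untreated and 85.8, 29.4 and 1.22 FPKM treated. Lce3d had 186, 138 and 62.6 and 56.5, 8.92 and 0.271 FPKM, and Lce3e 133, 109 and 60.97 and 37.1, 4.96 and 0.158 FPKM. In treated replicate 3, Lce3a and Lce3b were listed at 0, as Lce3a was in the 3 normal libraries. Tgm3, the transglutaminase that cross-links envelope proteins, had 89.1, 114 and 84.9 FPKM untreated and 45.5, 30.5 and 20.5 FPKM treated. Reads of such near-identical family members can be split between copies, so single Lce3, Sprr2, stefin and hair keratin-associated values are less certain than the family as a whole.

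Wound and hyperproliferative keratinocyte genes were lower as well, but mainly in treated replicates 2 and 3. Of 22 tested members 8 stood apart lower and 0 higher (median -2.50). The mean level of the list relative to untreated skin was -0.17 in treated replicate 1, -2.24 in replicate 2 and -4.33 in replicate 3, and -5.46 to -4.72 in normal skin. Krt6b, a keratin of activated epidermis, had 2427, 1726 and 965 FPKM untreated and 1497, 87.9 and 1.88 FPKM treated, so treated replicate 1 lay within the untreated range and replicate 3 at the 1.02, 2.05 and 3.11 FPKM of normal skin. The fit gave a log2 fold change of -4.46 with an SE of 2.13 and an adjusted p = 0.242. Krt6b also had the largest SD among treated libraries of all genes with a treated mean of 5 FPKM or more that were not listed at 0 or short RNAs (4.52 on the log2 scale, against 0.67 untreated).

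Il1f6 and Il1f8, which encode interleukin 36 alpha and beta, stood apart lower in all treated libraries, with 177, 150.04 and 149 FPKM untreated and 70.2, 22.04 and 2.82 FPKM treated for Il1f6. Il1f8 had 214, 149.8 and 163 and 89.2, 34.2 and 6.43 FPKM. Stfa2, a stefin inhibitor of cysteine proteases, had 706, 786 and 1798 and 562, 221 and 5.09 FPKM. Across these genes treated replicate 3 was lowest and replicate 1 highest of the treated libraries. The 12-library fit called 4 wound genes lower, and 15 passed without treated replicate 1. Interfollicular epidermal genes, the keratins and junction proteins of the lasting epidermis, had 6 of 14 members apart lower. Dsg1a, a desmosomal cadherin of upper layers, had 430.1, 416 and 505 FPKM untreated and 269, 152 and 113 FPKM treated. Against 255, 306 and 295 FPKM in normal skin, treated replicate 1 lay within the normal range and replicates 2 and 3 below it.

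**Figure D2:**
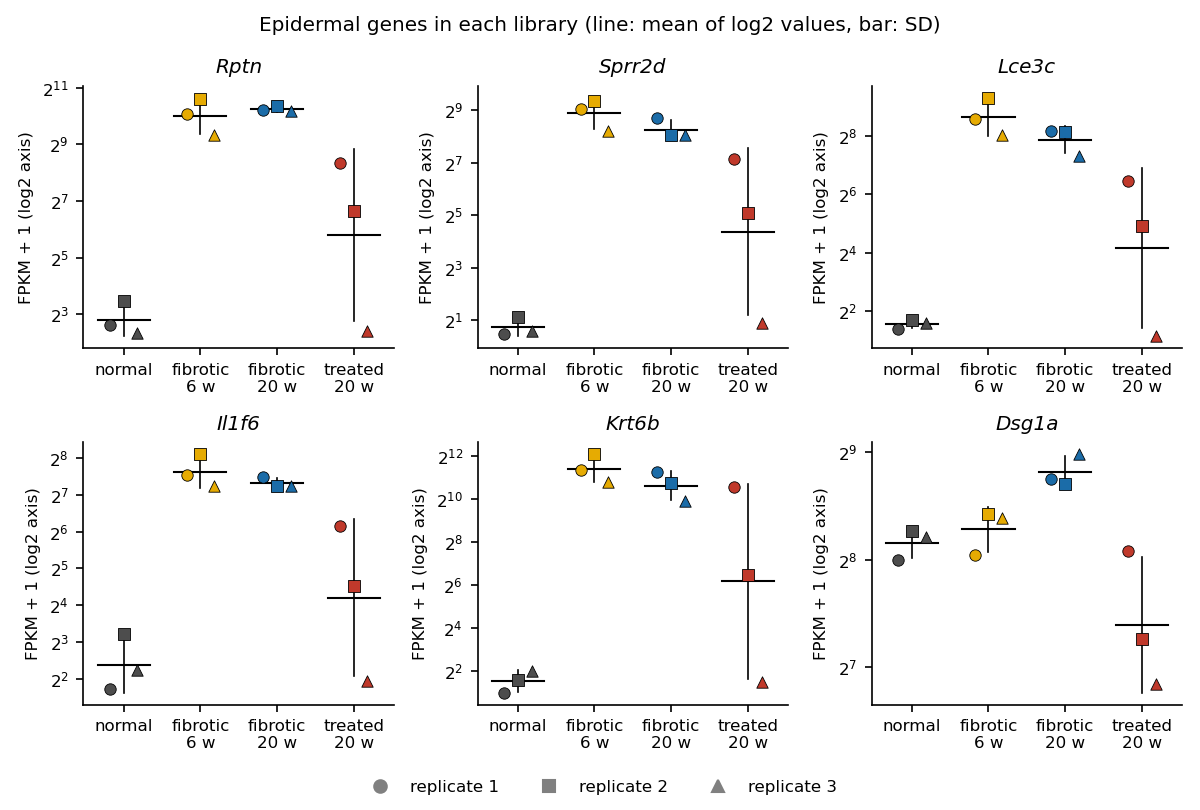
FPKM + 1 on a log2 axis for 6 epidermal genes in the 12 libraries; colours are groups, symbols replicates, lines the mean of the log2 values and bars their SD. For Krt6b the treated libraries run from 1.88 to 1497 FPKM, while for Dsg1a all treated values lie below all untreated ones.

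The genes with the smallest p-values after Cyp2s1 were picked by p, after their values were seen. Coch, the cochlin gene, encodes a secreted matrix protein. It had 1.35, 1.57 and 2.38 FPKM untreated and 7.71, 9.87 and 9.51 FPKM treated, with 11.1, 10.9 and 12.6 FPKM in normal skin. Its log2 fold change was 1.87 ± 0.18 (SE, n = 3 per group, adjusted p = 0.0764), and it passed in the 12-library fit (adjusted p = 0.00423). Klk14, an epidermal kallikrein that takes part in shedding of the cornified layer, had 47.1, 80.1 and 60.8 FPKM untreated and 3.75, 9.02 and 5.72 FPKM treated (log2 fold change -3.19 ± 0.32, SE, n = 3 per group, adjusted p = 0.0764). Tmprss11e, a membrane serine protease gene, had 12.1, 9.59 and 11.3 and 2.55, 1.42 and 2.44 FPKM. Mycn, a transcription factor gene of the MYC family, had 1.31, 1.67 and 1.84 FPKM untreated and 5.54, 5.93 and 5.15 FPKM treated, above the 2.02, 1.69 and 1.14 FPKM of normal skin. These 4 genes shared an adjusted p = 0.0764, just above the threshold. Treated replicate 1 lay close to the other treated libraries for Coch and Mycn, and for Klk14 it was the lowest of the 3. With Sgpp2, a sphingosine 1-phosphate phosphatase gene, and Tmem117, a membrane protein gene, they were the 6 genes nearest to the threshold.

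Protease families, also chosen after their values were seen, were lower too, with a wider spread. All 6 tested Tmprss11 genes stood apart lower (median -2.32; treated replicates 1, 2 and 3 at -1.65, -2.28 and -3.34). Of 11 kallikrein genes 8 stood apart lower and 1 higher (median -1.65).

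**Figure D3:**
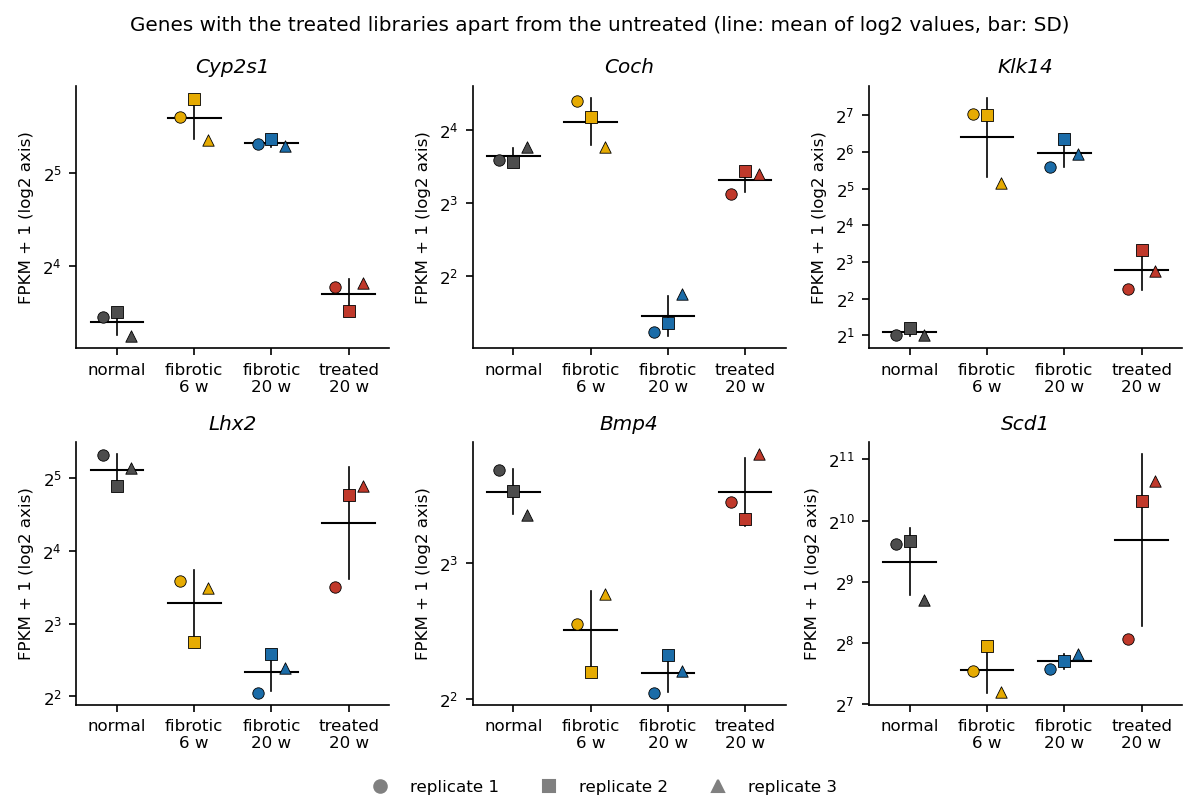
FPKM + 1 on a log2 axis for Cyp2s1, Coch, Klk14, Lhx2, Bmp4 and Scd1 in the 12 libraries; symbols are replicates, lines the mean of the log2 values and bars their SD. In each panel the 3 treated values lie on one side of the 3 untreated values, closely spaced for Cyp2s1 and Coch and widely for Scd1.

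Hair follicle genes were higher. Of 18 stem cell and outer root sheath genes, 12 stood apart higher and 0 lower, against 12.7% of all genes, with a median of 0.84 (treated replicates 1, 2 and 3 at 0.40, 0.99 and 1.36). In the 12-library fit 10 of them were called higher, and 14 passed without treated replicate 1. Lhx2, whose product keeps follicle stem cells in place, had 3.15, 4.99 and 4.23 FPKM untreated and 10.3, 26.3 and 28.7 FPKM treated, against 38.99, 28.8 and 34.1 FPKM in normal skin. Its log2 fold change was 2.05 ± 0.39 (SE, n = 3 per group, adjusted p = 0.121). Cd34, a surface protein of bulge cells that dermal fibroblasts and endothelium also carry, had 22.4, 22.3 and 17.2 and 30.8, 50.3 and 56.7 FPKM.

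Regulators of the hair cycle stood apart higher in 12 of 22 members and lower in 1 (median 0.55). Bmp4, a growth factor gene of the dermal papilla, had 3.13, 4.002 and 3.62 FPKM untreated, 9.92, 9.02 and 12.97 FPKM treated and 11.9, 10.6 and 9.25 FPKM in normal skin. Lef1, the transcription factor through which Wnt signals act in the growing hair, had 1.36, 1.43 and 2.23 FPKM untreated and 9.59, 4.85 and 11.2 FPKM treated, and 2.47, 1.95 and 1.697 FPKM in normal skin. Treated Bmp4 values overlapped the normal ones, while treated Lef1 values exceeded them.

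Genes of the hair fibre itself showed another order of the treated libraries: replicate 3 was highest, replicate 1 next and replicate 2 nearest to untreated skin. Of 25 keratin-associated protein genes 19 stood apart higher (median 2.91), and treated replicates 1, 2 and 3 had medians of 2.88, 0.99 and 4.93. Hair shaft keratins stood apart higher in 9 of 13 members and inner root sheath genes in 3 of 13. Krtap15, whose product cross-links hair keratins, had 23.9, 13.7 and 8.99 FPKM untreated, 175, 54.1 and 725 FPKM treated and 0.317, 90.7 and 26.03 FPKM in normal skin. Krt34, a hair keratin gene, had 9.28, 4.94 and 3.56, 53.6, 15.4 and 191 and 0.0805, 16.8 and 2.74 FPKM in the same order of groups. For both genes the 3 normal libraries themselves differed by more than the group means did. Krt35 had 9.49, 12.7 and 6.03 FPKM untreated and 118, 19.96 and 166 FPKM treated, and Krtap14 15.6, 8.58 and 5.84 and 107, 33.01 and 459.8 FPKM. Krt28, a keratin of the inner root sheath, had 11.6, 7.79 and 7.397 and 86.4, 17.7 and 161 FPKM. Cux1, a transcription factor gene that the inner root sheath expresses along with other tissues, had 13.7, 12.2 and 16.03 and 25.3, 19.4 and 34.7 FPKM. Of the 10 highest fold changes, 6 were keratin-associated protein genes: Krtap19-4 (4.18), Krtap16-1 (4.05), Krtap19-1 (4.01), Krtap16-3 (3.82), Krtap19-5 (3.70) and Krtap15 (3.64). Krtap19-1 was under 1 FPKM in all untreated libraries and entered through the treated ones alone. So did Krtap5-5 and Shh, a signal gene of hair growth; without them 18 of 24 keratin-associated genes and 11 of 21 hair cycle genes stood apart higher. Without treated replicate 1, 1 of the 25 keratin-associated genes passed, and treated replicates 2 and 3 lay far apart on this list.

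Sebaceous gland genes, most of them enzymes of sebum lipids, were far higher in treated replicates 2 and 3 than in replicate 1. Of 16 members 8 stood apart higher and 0 lower (median 1.80; treated replicates 1, 2 and 3 at 0.26, 2.69 and 2.47). Without treated replicate 1, 15 of them passed. Scd3, a stearoyl-CoA desaturase gene of the gland, had 1.12, 1.68 and 0.525 FPKM untreated and 1.95, 72.5 and 97.7 FPKM treated, with 75.8, 90.97 and 37.99 FPKM in normal skin. Elovl3, which lengthens fatty acids, had 8.65, 12.01 and 1.59 and 26.4, 56.1 and 51.3 FPKM, and Mc5r, the melanocortin receptor of sebocytes, 0.187, 0.868 and 0.4103 and 1.4004, 8.22 and 9.16 FPKM. Mc5r entered through the treated libraries alone, and without it 7 of 15 sebaceous genes stood apart higher. For Scd3 the treated values split between 1 near the untreated level and 2 near the normal one. Serpina3j, a serine protease inhibitor gene that was among the 10 highest fold changes, had 2.63, 8.15 and 1.301 FPKM untreated and 9.46, 247 and 172 FPKM treated.

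Adipocyte genes were higher in treated replicates 2 and 3. The list stood apart higher in 7 of 22 members and lower in 4 (median 1.24; treated replicates 1, 2 and 3 at 0.14, 1.25 and 2.28). Lep, the leptin gene, had 0.896, 1.87 and 1.75 FPKM untreated and 2.91, 16.2 and 24.2 FPKM treated, and Retn, which encodes resistin, 37.6, 49.3 and 45.8 and 74.6, 212 and 422 FPKM. Adipoq, the adiponectin gene, had 27.2, 40.96 and 57.5 and 50.2, 119.6 and 261 FPKM (log2 fold change 1.52, 95% interval 0.04 to 2.99, adjusted p = 0.188), and treated replicate 1 lay inside the untreated range. Summed over the list, adipocyte genes took 0.305 to 0.452% of the FPKM in untreated libraries and 0.3001%, 0.753% and 1.44% in treated replicates 1, 2 and 3.

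Genes of lipid synthesis followed the same split. Dgat1, which completes triglyceride synthesis, had 15.1, 14.7 and 11.5 FPKM untreated and 18.8, 33.6 and 39.6 FPKM treated, and Scd1, the main desaturase, 189, 209 and 225 and 268, 1281 and 1603 FPKM. The list stood apart higher in 4 of 17 members (median 0.65), and 12 passed without treated replicate 1. The adipocyte and sebaceous levels above moved with these genes, and their part in the result was not tested. Cholesterol synthesis, near the share of all genes, had 5 of 23 members apart lower and 1 higher (median -0.23, and 0.07 when each library was rescaled without its muscle, hair and cornified genes, a step that took the all-gene median from -0.02 to 0.24). Dhcr7, of the last step of the pathway, had 69.6, 77.9 and 81.7 FPKM untreated and 57.4, 40.5 and 32.1 FPKM treated, and Tm7sf2, a sterol reductase gene, 18.4, 26.9 and 27.8 and 13.1, 17.02 and 12.7 FPKM.

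Fatty acid uptake and oxidation, the metabolic theme of the series title, gave mixed values. Cd36, the uptake receptor that marks the transplanted cells, had 23.2, 33.6 and 67.3 FPKM untreated and 22.4, 85.9 and 131 FPKM treated, with 73.7, 59.7 and 57.8 FPKM in normal skin. The treated values straddled the untreated ones, and the log2 fold change was 0.74 (95% interval -0.98 to 2.46, adjusted p = 0.529). Thy1, the gene of CD90, had 57.5, 68.4 and 46.03 and 80.5, 103 and 63.1 FPKM (log2 fold change 0.50, 95% interval -0.05 to 1.06, adjusted p = 0.225), also with overlap. Neither marker therefore separated the treated libraries from the untreated ones. Fabp5, a carrier of fatty acids in keratinocytes, stood apart lower at 4179, 1736 and 701 FPKM against 7224, 6050.5 and 6415 FPKM, and Slc27a6, a fatty acid transporter gene, apart higher at 9.05, 3.85 and 9.42 against 2.83, 2.15 and 2.07 FPKM.

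Of 34 fatty acid oxidation genes, 9 stood apart lower (26.5%, beside 20.0% of all genes) and 2 higher (5.88%, beside 12.7%). The median of the list was 0.02, near the -0.02 of all genes. Cpt1a, the gate for fatty acid entry into mitochondria, stood apart lower. It had 40.6, 46.1 and 50.6 FPKM untreated, 25.9, 30.8 and 27.9 FPKM treated and 25.4, 38.4 and 32.8 FPKM in normal skin (log2 fold change -0.68 ± 0.13, SE, n = 3 per group, adjusted p = 0.121; adjusted p = 0.0278 in the 12-library fit). Hadhb, a subunit of the mitochondrial trifunctional protein, had 123, 116 and 129.7 and 82.3, 93.7 and 92.9 FPKM. The mean level of the list was -0.29 in treated replicate 1, which had the least muscle, and 0.22 and 0.29 in replicates 2 and 3, relative to untreated skin; the part of muscle in this was not tested.

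Glycolysis genes were lower in treated replicates 2 and 3. The list median was -0.55 (0.03, -0.52 and -0.93 in treated replicates 1, 2 and 3), 3 of 29 members stood apart lower, a smaller share than the 20.0% of all genes, and 19 passed without treated replicate 1, beside 29.4% of all genes. Tpi1, a mid-pathway isomerase gene, had 438, 366 and 346 FPKM untreated and 328, 211 and 172 FPKM treated, and Pdk1, which restrains pyruvate oxidation, 25.3, 24.1 and 24.3 and 20.2, 18.4 and 15.8 FPKM. Pfkfb3, which encodes an activator of glycolytic flux, had 22.8, 19.1 and 22.6 FPKM untreated and 19.9, 19.6 and 27.1 FPKM treated (log2 fold change 0.03, 95% interval -0.36 to 0.42, adjusted p = 0.914). It was above the 11.6, 12.9 and 9.56 FPKM of normal skin in each treated library. Citric acid cycle genes (3 of 21 apart higher and 2 lower, median 0.09) and nuclear-encoded respiratory chain genes (2 and 5 of 28, median -0.06, and 0.23 with the rescaled libraries) lay near the median of all genes. Sdhb, a subunit of succinate dehydrogenase, had 46.8, 44.8 and 48.6 and 58.4, 73.8 and 91.4 FPKM, and Ogdh, of the oxoglutarate dehydrogenase complex, 42.3, 46.4 and 47.8 and 34.7, 35.4 and 39.5 FPKM. Cox4i1, a subunit of cytochrome c oxidase, had 335, 371 and 359 and 389, 465 and 512 FPKM, and Ndufa4, another one, 908, 708 and 708 and 729.7, 448 and 382 FPKM. Sdhb and Cox4i1 were higher and Ogdh lower in all treated libraries, while the Ndufa4 groups overlapped.

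Hypoxia response genes were lower, most of all in treated replicates 2 and 3 (median -0.74; -0.20, -0.94 and -1.16 in treated replicates 1, 2 and 3). Of 14 members 6 stood apart lower and 0 higher, and the 12-library fit called 4 lower. Bnip3, a mitophagy receptor gene induced by low oxygen, had 152, 123 and 110.2 FPKM untreated and 80.96, 47.1 and 57.2 FPKM treated, with 70.6, 72.3 and 67.3 FPKM in normal skin. Epas1, which encodes the hypoxia-inducible factor 2 alpha, had 32.7, 31.5 and 37.4 and 14.8, 21.4 and 26.6 FPKM. In both genes each treated value was below each untreated one. For Epas1, unlike the list median, treated replicate 1 was the lowest and replicate 3 the highest of the treated libraries.

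Fibrillar collagen genes did not separate the groups. Col1a1, the main chain of type I collagen, had 86.1, 151 and 62.8 FPKM untreated and 51.2, 149 and 112 FPKM treated, against 24.5, 36.8 and 17.2 FPKM in normal skin. Its log2 fold change was 0.02 with a 95% interval of -1.14 to 1.19, so a 2-fold difference in either direction was inside the interval. Col1a2 (-0.13, 95% interval -1.18 to 0.92), Col3a1 of type III collagen (0.13, -1.08 to 1.34) and Fn1 of fibronectin (0.22, -0.83 to 1.27) gave similarly wide intervals around small values (adjusted p = 0.866, 0.887 and 0.769, and 0.982 for Col1a1). Of 6 fibrillar collagen genes 0 stood apart in either direction. Their mean level was -0.50, 0.76 and 0.56 in treated replicates 1, 2 and 3, inside or near the -0.55 to 0.60 of the untreated libraries themselves. Col5a3, a minor fibrillar chain, had 3.57, 5.76 and 3.57 and 4.37, 15.3 and 24.6 FPKM and passed without treated replicate 1 (adjusted p = 0.00833). Col5a1, the main chain of type V collagen, had 6.65, 12.6 and 5.57 and 5.56, 13.5 and 12.05 FPKM.

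Some other matrix genes stood apart. Col12a1, a collagen that binds to the surface of fibrils, was lower at 6.02, 10.9 and 6.23 FPKM treated against 16.3, 20.7 and 14.4 FPKM untreated. Cthrc1, a secreted protein gene of activated fibroblasts, had 12.1, 9.55 and 3.94 FPKM untreated, 1.805, 4.06 and 0.985 FPKM treated and 0.298 to 0.472 FPKM in normal skin, with treated replicate 2 just above untreated replicate 3 and the other libraries apart. Higher in all treated libraries were Tgm2, a matrix cross-linking transglutaminase gene (16.2, 15.2 and 12.1 and 24.4, 26.98 and 39.8 FPKM), the lysyl hydroxylase gene Plod3 (10.2, 10.5 and 8.19 and 13.8, 14.8 and 16.3 FPKM) and Cyr61, the matricellular protein CCN1 (10.6, 10.8 and 14.3 and 19.5, 23.2 and 24.8 FPKM). The 12-library fit called each of these 5 genes, with adjusted p from 0.0187 to 0.0323. Collagen folding and cross-linking genes stood apart higher in 4 of 22 members (18.2%), beside 12.7% of all genes. Elastic fibre genes did so in 3 of 16 (18.75%) and basement membrane and other collagens in 0 of 15, with 1 lower. The mean level of these collagens was -0.40, 0.65 and 0.67 in treated replicates 1, 2 and 3, against -0.22 to 0.34 in the untreated libraries. Without treated replicate 1, 7 of the 15 passed, 6 higher and 1 lower, beside 29.4% of all genes. Efemp1, which encodes fibulin 3, had 6.49995, 9.799 and 4.15 FPKM untreated and 12.6, 14.1 and 18.3 FPKM treated, and Emilin2, a glycoprotein of elastic fibre borders, 3.13, 3.29 and 2.58 and 5.53, 4.08 and 4.66 FPKM. Among proteoglycans 0 of 15 stood apart higher and 0 lower. Podn, the podocan gene, had 1.82, 2.88 and 2.004 and 2.21, 5.56 and 8.24 FPKM, and Dcn, which encodes the fibril-coating decorin, 134, 182 and 57.8 and 165, 244 and 230.02 FPKM.

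Single matrix protease and inhibitor genes went in both directions. Mmp13, an interstitial collagenase gene, had 16.7, 25.3 and 2.18 FPKM untreated and 14.9, 0.8401 and 0.0875 FPKM treated (log2 fold change -1.85, 95% interval -4.81 to 1.12, adjusted p = 0.368), and untreated replicate 3 was itself low. Mmp2, the gelatinase A gene, had 56.3, 67.6 and 34.9 and 40.04, 65.03 and 55.5 FPKM, with all treated values inside the untreated range. Ctsd, a lysosomal protease gene, was lower in all treated libraries (994, 688 and 779.6 and 560.00, 433 and 462 FPKM), and Adamts5, an aggrecanase gene, higher (2.45, 2.16 and 1.91 and 3.69, 6.26 and 8.52 FPKM). Timp3, a metalloproteinase inhibitor gene, was higher in all treated libraries, 27.7, 32.8 and 34.9 and 38.1, 83.3 and 88.4 FPKM, with 111, 108 and 115 FPKM in normal skin. Over the protease list 2 of 23 stood apart higher and 3 lower (median -0.14, and 0.15 with the rescaled libraries).

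Contractile and vascular genes were higher in treated replicates 2 and 3 than in replicate 1. Acta2, the smooth muscle actin of myofibroblasts and of vessel walls, had 23.5, 50.3 and 30.7 FPKM untreated and 24.6, 102 and 123 FPKM treated (log2 fold change 1.01, 95% interval -0.54 to 2.56, adjusted p = 0.346). Smtn, of contractile smooth muscle, had 12.4, 14.4 and 11.01 and 16.9, 20.1 and 44.6 FPKM, and Tagln, the transgelin gene, 30.6, 36.8 and 28.2 and 31.7, 85.97 and 120.1 FPKM. Smtn was the 1 contractile gene of 14 that stood apart, with all treated values above the untreated ones (7.14%, beside 12.7% of all genes apart higher). The contractile list had mean levels of -0.74, 1.03 and 1.499 in treated replicates 1, 2 and 3. Without replicate 1, 10 of 14 members passed, beside 29.4% of all genes. Mean levels of blood endothelial markers went the same way (-0.55, 0.83 and 1.22), as did pericyte markers (-0.34, 0.74 and 0.94) and Schwann cell markers (-0.43, 0.91 and 0.79). Of 18 endothelial markers 0 stood apart, and 11 passed without replicate 1, beside 29.4% of all genes. Pericyte markers stood apart higher in 2 of 8 (25%, beside 12.7% of all genes) and Schwann cell markers in 0 of 10. Plvap, a protein of endothelial pores, had 22.6, 23.3 and 31.1 FPKM untreated and 25.8, 54.2 and 74.6 FPKM treated, and Erg, an endothelial transcription factor gene, 1.62, 1.48 and 2.48 and 1.55, 4.66 and 5.24 FPKM. The summed share of the endothelial genes was 0.0209 to 0.0325% of the FPKM in untreated libraries and 0.0181%, 0.0618% and 0.0862% in treated replicates 1, 2 and 3. Cav1, the caveolin gene, which fat cells and endothelium hold at high levels, had 86.3, 93.3 and 88.1 FPKM untreated and 73.8, 174 and 208 FPKM treated, with 173, 170.05 and 154 FPKM in normal skin. Its log2 fold change of 0.63 (95% interval -0.30 to 1.56) had an adjusted p = 0.329 with treated replicate 1 and 0.00651 without it. Of 9 caveolar genes 1 stood apart higher (11.1%, beside 12.7% of all genes), and 5 passed without treated replicate 1. Prkcdbp, which encodes cavin 3, had 34.9, 37.4 and 28.7 and 37.9, 71.02 and 73.5 FPKM, and Ehd2, an ATPase of the caveolar neck, 41.4, 42.4 and 35.6 and 36.7, 62.4 and 83.7 FPKM. The summed share of the contractile list was 0.0675%, 0.113% and 0.149% of the FPKM in untreated replicates 1, 2 and 3. It was 0.0511%, 0.193% and 0.296% in treated replicates 1, 2 and 3. Skeletal muscle fibre genes had 0.187%, 0.432% and 0.862% untreated and 0.0280%, 0.523% and 0.907% treated, in the same order of libraries. The part of vessel, fat and muscle content in the caveolin and contractile values was not tested.

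Dermal fibroblast markers stood apart higher in 6 of 21 members and lower in 1 (median 0.57; treated replicates 1, 2 and 3 at 0.15, 0.85 and 0.58). Pi16, a marker of adventitial fibroblasts, had 4.82, 4.23 and 1.02 FPKM untreated, 7.59, 11.9 and 19.2 FPKM treated and 25.5, 22.8 and 18.7 FPKM in normal skin. Genes of the TGF-beta pathway stood apart higher in 5 of 18 members and lower in 0. Bambi, 1 of the 5, entered through the treated libraries alone, and without it the count is 4 of 17. Smad7, an inhibitor of the pathway, had 4.49, 4.04 and 4.39 and 5.99, 5.55 and 7.66 FPKM, and Bambi, a decoy receptor gene, 0.681, 0.644 and 0.567 and 3.69, 1.13 and 5.77 FPKM.

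**Figure D4:**
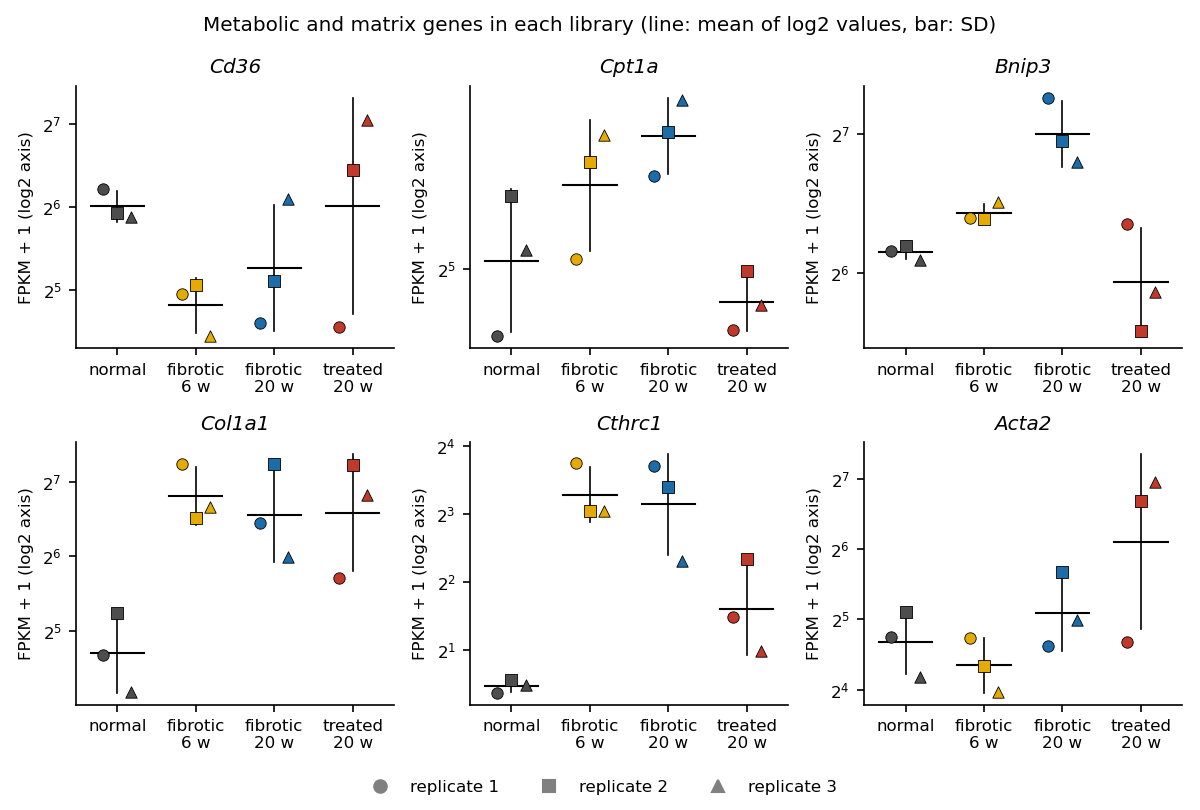
FPKM + 1 on a log2 axis for Cd36, Cpt1a, Bnip3, Col1a1, Cthrc1 and Acta2 in the 12 libraries; symbols are replicates, lines the mean of the log2 values and bars their SD. Treated and untreated values overlap for Cd36, Col1a1, Cthrc1 and Acta2, and stand apart for Cpt1a and Bnip3.

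Immune genes set treated replicate 1 against the other two treated libraries. Interferon-stimulated genes, which cells switch on against viruses, were above all 3 untreated libraries in treated replicate 1 for 26 of 26 members. In treated replicates 2 and 3, 23 and 21 members were below all untreated libraries. Irf9, a transcription factor gene of the interferon response, had 59.5, 48.8 and 48.5 FPKM untreated and 65.4, 23.2 and 18.8 FPKM treated. The median of the list, -0.27, thus averages opposite directions. T and NK cell genes split in the same way, above all untreated libraries for 16 of 19 members in treated replicate 1 and below for 13 and 14 in replicates 2 and 3. Cd247, the zeta chain of the T cell receptor, had 1.54, 1.82 and 2.39 FPKM untreated and 2.73, 3.54 and 3.07 FPKM treated. Cytokine and acute-phase genes had mean levels of 0.87, -0.71 and -0.96 in treated replicates 1, 2 and 3 relative to untreated skin. Saa1, a serum amyloid gene, stood apart lower (7.14, 11.9 and 13.4 and 5.72, 2.72 and 0.656 FPKM), and Hp, the haptoglobin gene, apart higher (42.97, 58.9 and 75.5 and 112, 126 and 142 FPKM).

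Macrophage markers stood apart lower in 5 of 23 members (21.7%, near the 20.0% of all genes) and higher in 0 (median -0.30, members from -1.95 to 1.47). The summed share of the list went the other way. It was 0.197 to 0.222% of the FPKM in untreated libraries and 0.240%, 0.373% and 0.628% in treated replicates 1, 2 and 3. Lyz2, the lysozyme of macrophages and neutrophils, had 241, 221 and 218 FPKM untreated and 119, 120.00 and 100.2 FPKM treated, close together in each group (log2 fold change -1.001 ± 0.13, SE, n = 3 per group, adjusted p = 0.118). Arg1, the arginase gene, which keratinocytes also express, had 68.6, 77.1 and 98.5 and 36.7, 16.4 and 13.2 FPKM. Neutrophil genes were represented by 4 tested members, 3 below all untreated libraries in each of treated replicates 2 and 3 and 0 in replicate 1. S100a8, a calgranulin of neutrophils and of wound keratinocytes, had 1995, 293 and 205 and 724, 22.4 and 9.58 FPKM, and Cxcr2, a chemokine receptor of neutrophils, 22.01, 14.3 and 13.9 and 18.7, 3.93 and 1.11 FPKM. Mast cell genes had mean levels of 0.03, 1.18 and 1.14 in treated replicates 1, 2 and 3, and 0 of 9 stood apart. Kit, the receptor that mast cells and melanocytes need, had 2.95, 1.902 and 1.38 and 2.83, 3.16 and 6.32 FPKM, and Cma1, a mast cell chymase gene, 5.96, 12.2 and 4.39 and 6.81, 28.6 and 21.9 FPKM.

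Among the stress and growth programmes, targets of p53 and senescence genes stood apart lower in 7 of 21 members and higher in 2 (median -0.28, and 0.00 with the rescaled libraries). Perp, a desmosomal p53 target, had 3413, 3012 and 3218 and 2153, 1410.1 and 1052 FPKM, and Cdkn2b, a cell cycle inhibitor gene, 33.2, 34.7 and 38.8 and 26.999, 16.2 and 13.2 FPKM. Among NRF2 antioxidant genes 6 of 18 stood apart lower and 3 higher. Hmox1, which breaks down haem, had 109, 115 and 99.2 FPKM untreated and 63.8, 39.9 and 31.02 FPKM treated, and Gsta1, a glutathione transferase gene, 5.24, 8.66 and 7.49 and 1.003, 2.84 and 0.891 FPKM. Cell cycle genes did not separate the groups, with 0 of 31 apart; 19 members were above all untreated libraries in treated replicate 1 and 22 below them in replicate 3. Mcm7, a subunit of the replicative helicase, had 27.3, 20.5 and 16.8 FPKM untreated and 30.7, 32.1 and 22.5 FPKM treated, and Cdc45, which activates that helicase, 5.83, 4.21 and 3.56 and 7.52, 6.21 and 4.95 FPKM. Cytosolic ribosomal protein genes stood apart lower in 14 of 28 members (median -0.18, and 0.12 with the rescaled libraries); Rpl5 had 703, 637 and 661 and 544, 552 and 438 FPKM, and Rps27a 2138, 1749 and 1899.7 and 1550.4, 1487 and 1084 FPKM.

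**Figure D5:**
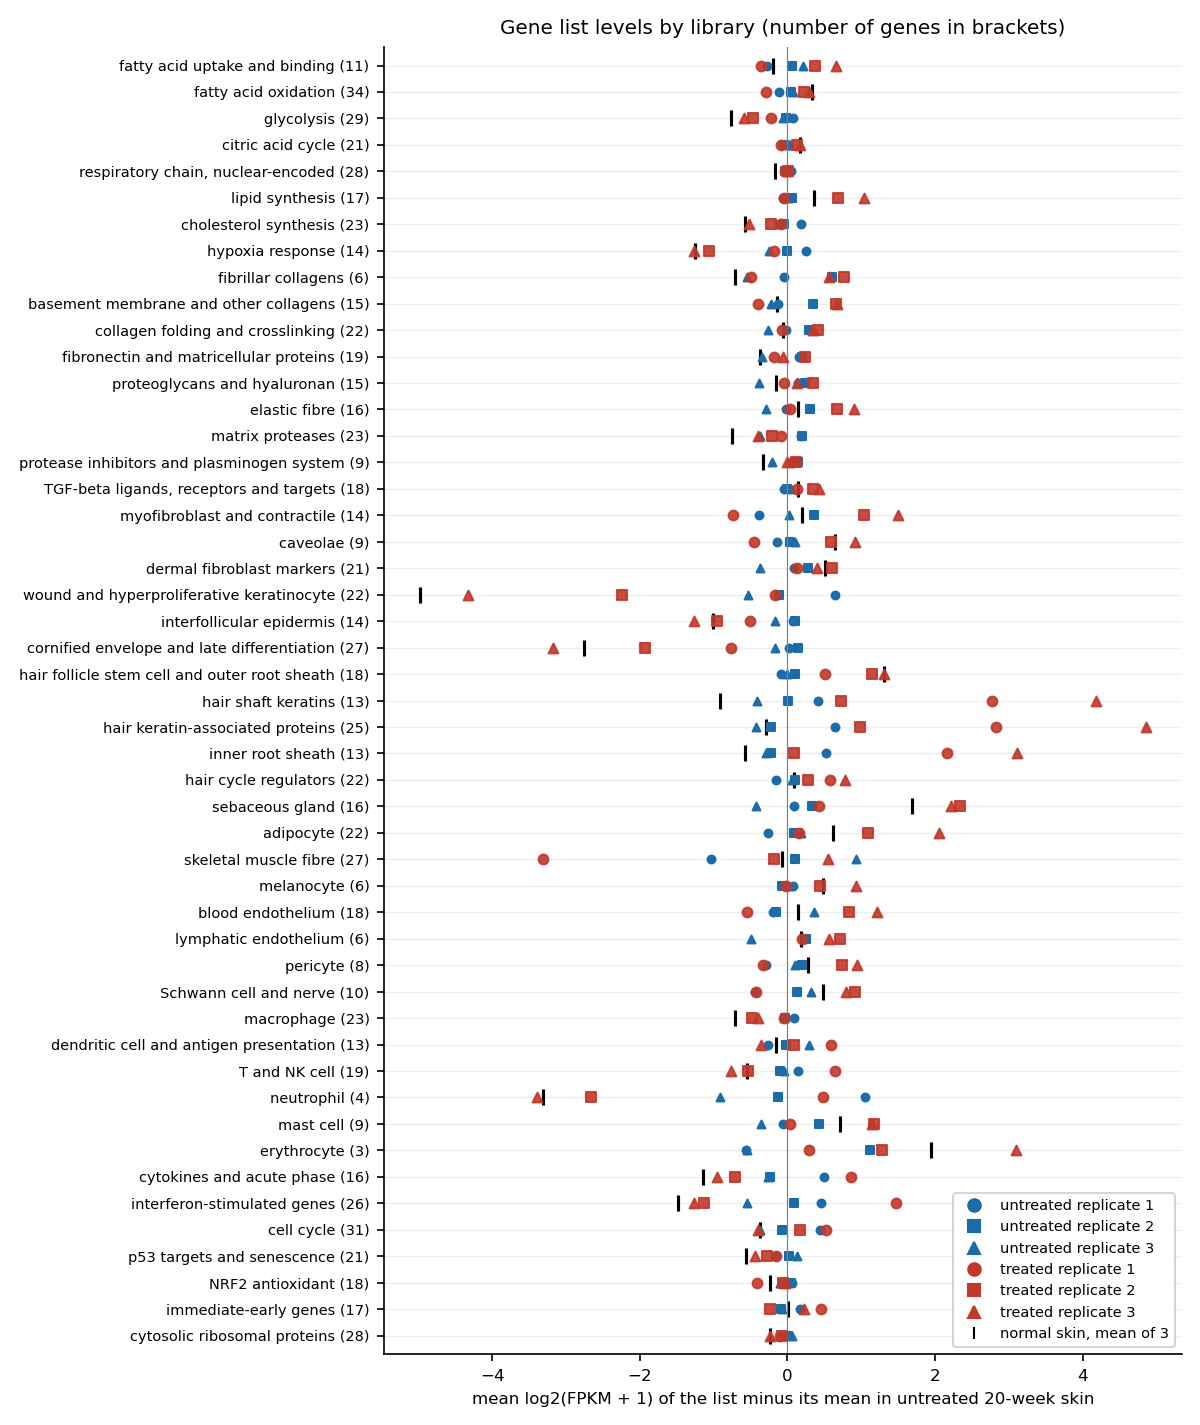
Mean log2(FPKM + 1) of each gene list in the 20-week libraries, relative to its mean in untreated skin (0 on the axis); blue symbols are untreated and red symbols treated replicates, the black tick is the mean of the 3 normal libraries, and the number of genes is in brackets. The wound list runs from -0.17 in treated replicate 1 to -4.33 in replicate 3.

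Treated and untreated skin were also set against normal skin, over the same genes and in fits of 6 libraries each; these comparisons share libraries with the one above and are no independent support for it. Untreated skin differed from normal skin in 5023 genes (38.3%), 2453 higher (18.7%) and 2570 lower (19.6%). Treated skin differed in 137 (1.04%), 34 higher (0.259%) and 103 lower (0.784%). With all 12 libraries in one fit instead, the counts were 4394 for untreated and 2783 for treated skin. The median absolute log2 distance of a gene from the normal mean was 0.371, 0.255 and 0.339 in treated replicates 1, 2 and 3. In untreated replicates 1, 2 and 3 it was 0.394, 0.325 and 0.317. The count of 137 changed with the libraries: 423 genes passed without treated replicate 1, 45 without treated replicate 3 and 0 without treated replicate 2 or any normal library. The cornified envelope list had a median of 1.98 for untreated and 0.79 for treated against normal skin. For the wound list these were 4.72 and 2.24, for glycolysis 0.87 and 0.42, for hypoxia genes 1.22 and 0.37. Follicle stem cell genes had -1.12 and -0.25, sebaceous genes -1.67 and -0.03, and fibrillar collagens 0.74 and 0.87.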

How the data were processed

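The authors deposited 1 table of FPKM values for 23359 genes in 12 libraries of mouse skin. Poly(A) RNA was made into stranded paired-end libraries, per the labels' protocols. The submitters' processing notes name the mouse build mm10, the aligner TopHat2 2.0.13 with Bowtie2 2.2.3, Cufflinks 2.2.1, and also cutadapt 1.7.1 and FastQC 0.11.2. FPKM keeps no read count, so depth is unknown and no counting interval is given. Whether strand was used in counting is not given in the sources used here.

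Values were analysed as log2(FPKM + 1); with this pseudocount, fold changes of low genes are understated. Genes with 1 FPKM or more in 3 of the 6 libraries at 20 weeks were fitted with limma 3.58.1 in R 4.3.3, with an intensity trend and these 6 libraries only. Benjamini-Hochberg adjustment ran over the 13130 genes, and an adjusted p under 0.05 was a call. All tests were two-sided. With 3 libraries on each side, exact permutation cannot go under p = 0.1 and was not used. Each list level is the mean log2 value of its tested genes minus the mean of the 3 untreated libraries.

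Genes were named by a rule: 14 genes of the study's theme; the 2 members of each described list with the smallest p; the 10 highest and 10 lowest fold changes among genes that stood apart at a mean of 5 FPKM or more in either group; and the called genes. Exceptions are said in the text, and 1 gene that the rule names is not reported here. The members and lists were chosen with earlier results of these data known. Alternatives were another pseudocount, other filters, median-of-ratios scaling, rescaling without muscle, hair and cornified genes, all 12 libraries in one fit, a spread for each group, no trend, the replicate number as a block, a 2-fold threshold, and leaving out each library. The median-of-ratios factors of the deposited values were 0.978 to 1.04, so that scaling changed them little. Promoter sequences and positions are from RefSeq on GRCm38.p6, and all 4 genes matched by symbol.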

Additional observations from a re-analysis of the deposited data

How the results depend on the processing

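The 3 genes called between treated and untreated skin became 1 with no filter on low values and 2141 with all 12 libraries in one fit, and 1 to 3863 when one library was left out. The other settings called 2 or 3. The 137 genes called between treated and normal skin became 2783 with all 12 libraries, 0 with the replicate block, and 0 to 423 when one library was left out. The cause was not tested.

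The sign of some small fold changes turned. With the rescaled libraries Col1a2 stood at 0.16 and Lum at 0.14. Leaving out one library gave -0.30 to 0.46 for Col1a1, -0.52 to 0.19 for Col1a2, -0.37 to 0.52 for Col3a1, -0.28 to 0.53 for Fn1, -0.066 to 0.15 for Krt5, -0.62 to 0.27 for Lum, -0.23 to 0.24 for Mmp2 and -0.11 to 0.11 for Pfkfb3.

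Whether the replicate numbers pair the samples is not given in the sources used here. Same-numbered treated and untreated libraries had deviations from their group means that correlated at 0.43, 0.04 and -0.03 for numbers 1, 2 and 3. Only number 1 correlated best with its own number. Deviations from a mean of 3 libraries depend on each other, so these values cannot settle the pairing. With the replicate number as a block, 2 genes were called between treated and untreated skin.

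The 3 libraries per group, an unknown depth and mixed tissue limit these values.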
